A study of Arabidopsis thaliana with 12 samples.

Results

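Chlorophyll is made in the chloroplast from glutamate by a chain of nuclear-encoded enzymes, and 10 genes of that chain were followed here in Arabidopsis seedlings. They were taken by locus identifier, by a rule that uses no measured value, and make up 10 of the 37184 genes in each count file. In pathway order they are HEMA1 (AT1G58290), GUN4 (AT3G59400), CHLH, also called GUN5 (AT5G13630), CHLI1 (AT4G18480), CHLD (AT1G08520), CHLM (AT4G25080), CRD1 (AT3G56940), PORB (AT4G27440), PORC (AT1G03630) and CAO (AT1G44446). All 10 passed the filter on low counts in the table as a whole.

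The pathway starts when glutamyl-tRNA reductase turns glutamyl-tRNA into the precursor of 5-aminolevulinic acid, from which the tetrapyrrole ring is built. At protoporphyrin IX the pathway branches: insertion of iron leads to haem and the bilins, and insertion of magnesium leads to chlorophyll. In flowering plants the reduction of protochlorophyllide needs light, and several intermediates are photosensitisers, so the pathway is held under tight control in leaves.

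Total RNA was sequenced from 21 day old seedlings of 4 genotypes, with 3 libraries each and 12 in all. The groups were the dxo1-2 mutant, the xrn3-8 mutant, the dxo1-2 xrn3-8 double mutant and the wild type Col-0, raised on soil with 16 h of light a day after the seeds had been kept cold, and no further allele or agent is named for any of them. The DXO1 protein acts on the caps at RNA 5′ ends, and the XRN3 protein is an exoribonuclease of the nucleus that works in the 5′ to 3′ direction. The design text counts the 3 libraries of a genotype as biological replicates, and it states that all genotypes were handled in parallel, while sequencing lanes or days are not among the labels. The titles mark the dxo1-2, xrn3-8 and Col-0 libraries as re-analysed, because their data also belong to earlier series, and the double mutant libraries carry no such mark. That mark and the double mutant genotype cannot be told apart in any comparison with the double mutant, the interaction included.

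Gene counts summed to between 60138933 and 81494915 per library, and plastid-encoded genes took 41.3 to 53.5% of them. DXO1 stood at 1.29 to 1.73 CPM (counts scaled by the library size and by a TMM factor of 0.863 to 1.17) in dxo1-2 and at 2.97 to 3.13 CPM in the double mutant, against 8.62 to 8.93 CPM in Col-0. XRN3 stood at 20.1 to 23.0 CPM in xrn3-8 and at 38.1 to 44.1 CPM in the double mutant, against 51.4 to 52.1 CPM in Col-0. The XRN3 transcript was higher in the double mutant than in xrn3-8 (log2 fold change 0.90, edgeR adjusted p 7.6e-07). The DXO1 transcript was higher in the double mutant than in dxo1-2 (log2 fold change 1.01, adjusted p 2.7e-05). The double mutant thus does not hold the same reduction of either transcript as the single mutants. The sum of 5 leaf mesophyll markers was 7967 to 9987 CPM in dxo1-2, 6386 to 7917 CPM in xrn3-8 and 4764 to 6263 CPM in the double mutant, against 10116 to 10931 CPM in Col-0. Of those 5 markers, 0 were called in dxo1-2. All 5 were called lower in xrn3-8 and in the double mutant, where 18.1% and 22% of all genes tested were called lower. The root hair markers EXPA7 and COBL9 and the root peroxidase PRX44 had 0 to 11 counts in any library, although the tissue is labelled as seedlings. The other root list genes, SCR and SHR, had 239 to 550 and 150 to 388 counts, and SCR was called higher in the double mutant (0.63 on the log2 scale, adjusted p 0.0157) and SHR in dxo1-2 (0.62, adjusted p 0.0186).

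To compare levels between genes, CPM were divided by the length of the exons in kilobases. CRD1, the membrane subunit of the cyclase that closes the fifth ring, had the highest level per length in all genotypes, at 1426 CPM per kb in dxo1-2, 588 in xrn3-8 and 875 in dxo1-2 xrn3-8, against 973 in Col-0. In Col-0 the order went on with PORB at 463 ± 60.7 CPM per kb and CHLH at 411 ± 23.8 (SD, n = 3), and the libraries of these neighbours overlapped. CHLI1 at 300, HEMA1 at 234, CAO at 139, PORC at 86.4, CHLM at 59.3, CHLD at 38.1 and GUN4 at 26.4 CPM per kb followed in Col-0, each without overlap with the next. The order was not the same in the mutants. In xrn3-8, CRD1 at 588 ± 30 and PORB at 577 ± 9.40 CPM per kb overlapped (SD, n = 3). GUN4 was the lowest of the 10 in xrn3-8 and Col-0, but rank 8 in dxo1-2 and in the double mutant. The summed level of the 10 genes was 5870 to 6481 CPM in dxo1-2, 3958 to 4304 CPM in xrn3-8 and 4095 to 4559 CPM in the double mutant, against 5514 to 6329 CPM in Col-0, so the dxo1-2 libraries overlapped those of Col-0 and the others lay below. This order rests on the TMM factors, which were 0.977 to 1.01 for dxo1-2, 0.956 to 1.04 for xrn3-8 and 1.13 to 1.17 for the double mutant, against 0.863 to 0.892 for Col-0. As a plain share of all gene counts, the 10 genes took 0.596 to 0.633% in dxo1-2, 0.411 to 0.415% in xrn3-8 and between 0.463 and 0.533% in the double mutant, against 0.492 to 0.546% in Col-0. By that share dxo1-2 lay wholly above Col-0, xrn3-8 wholly below it, and the double mutant overlapped it. Plastid-encoded genes, which enter the total, took 47.6 to 48.5% in dxo1-2, 49.0 to 53.5% in xrn3-8 and between 41.3 and 45.9% in the double mutant, against 50.8 to 51.6% in Col-0.

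**Figure D1:**
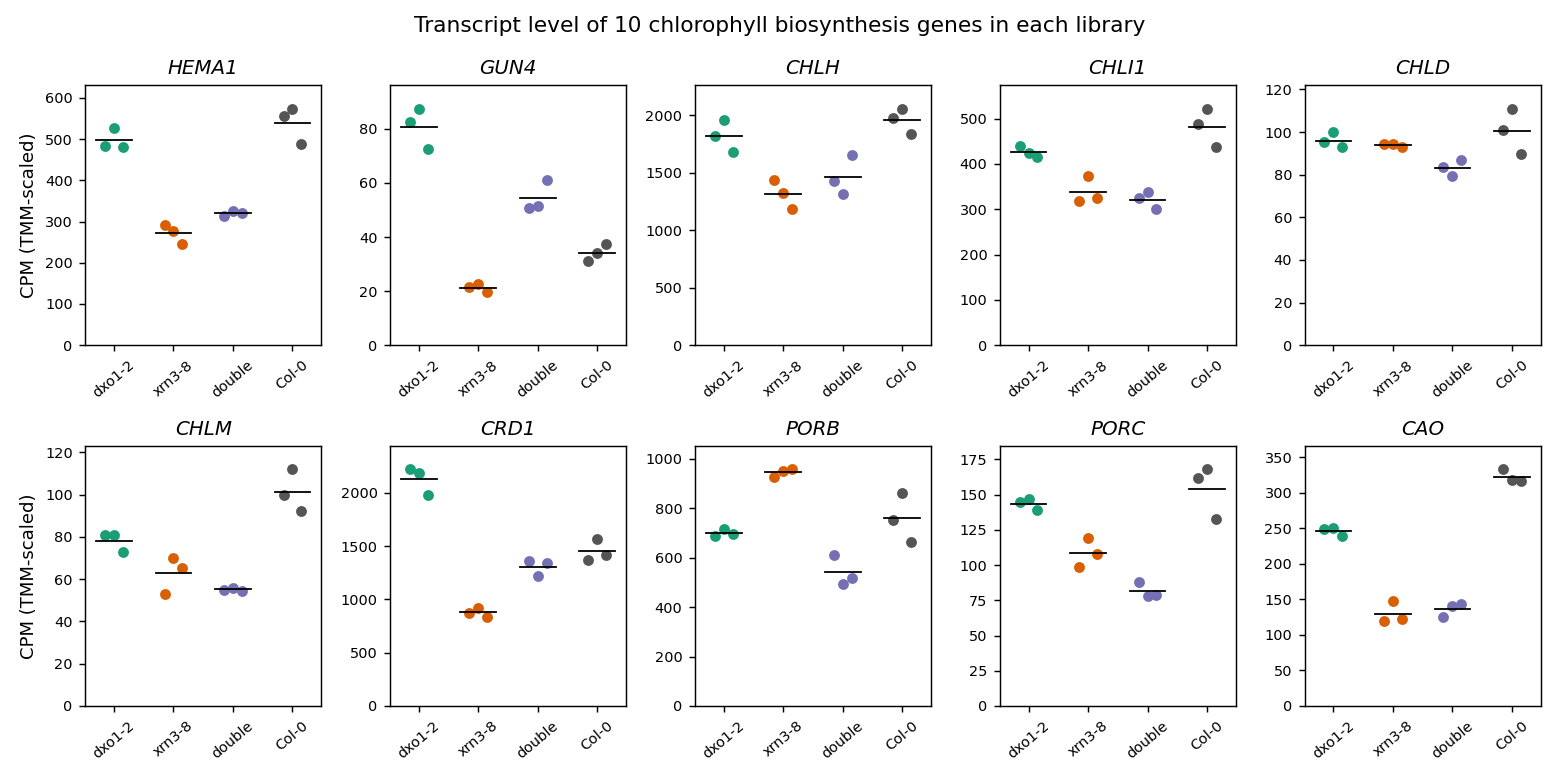
CPM (counts scaled by the library size and the TMM factor, linear axis from 0) of the 10 genes in each library, as points, with the mean of 3 libraries as a bar; genotypes run from dxo1-2, xrn3-8 and the double mutant to Col-0. In CAO the xrn3-8 and double mutant points sit between 119 and 148 CPM, below the dxo1-2 points and the Col-0 points, and in PORB the xrn3-8 points are the highest.

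The upstream sequences of 3 genes are shown because each carried a motif known from light- or clock-regulated promoters and their transcripts differed in pattern across the genotypes, and they were picked with these values known. GUN4 is left out because its window lies within GCN2. These motifs were searched on both strands in the 250 bases before the annotated start of the 10 genes and of 27443 protein-coding genes: CACGTG (the G-box, whose reverse complement is itself), AAAATATCT (the evening element), AAAAATCT (the CCA1 binding site), GATAAG (the I-box) and CCAATC (which holds the core of the CCAAT box). The G-box was found before CRD1 and CAO and in 6.49% of all promoters, the evening element before PORB and in 2.36%, and AAAAATCT before GUN4 and CRD1 and in 6.69%. CCAATC was found before GUN4 and PORB and in 10.2%, and GATAAG before none of the 10 genes and in 12.3%. In CRD1 and in CAO a G-box began 52 bases before the start, and CAO held a further G-box at 32 bases. The evening element of PORB began 142 bases before the start. The sequences are from RefSeq, build TAIR10.1, read 5′ to 3′ on the strand of the gene up to the base before the start, and cut where another gene begins. CRD1 lies at chr3:21076316-21076504 (plus strand), PORB at chr4:13725360-13725545 (plus strand) and CAO at chr1:16851272-16851521 (minus strand). Capitals mark the motifs, which are the G-box and AGATTTTT (the reverse complement of AAAAATCT) in CRD1, the evening element and CCAATC in PORB, and the G-boxes in CAO.
CRD1: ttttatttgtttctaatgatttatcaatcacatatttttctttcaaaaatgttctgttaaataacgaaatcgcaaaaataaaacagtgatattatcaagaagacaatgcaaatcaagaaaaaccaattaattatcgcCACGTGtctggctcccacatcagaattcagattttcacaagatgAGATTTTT
PORB: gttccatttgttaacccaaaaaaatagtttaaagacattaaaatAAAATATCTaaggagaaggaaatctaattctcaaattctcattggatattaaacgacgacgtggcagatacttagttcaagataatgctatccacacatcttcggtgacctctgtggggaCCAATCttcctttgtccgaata
CAO: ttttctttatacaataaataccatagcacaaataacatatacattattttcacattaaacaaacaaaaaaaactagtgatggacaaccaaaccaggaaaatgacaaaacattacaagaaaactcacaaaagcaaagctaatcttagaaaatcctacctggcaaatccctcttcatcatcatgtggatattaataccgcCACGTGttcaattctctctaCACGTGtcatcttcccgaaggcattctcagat

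Each mutant was compared with Col-0 by edgeR's quasi-likelihood test, with p-values adjusted by Benjamini-Hochberg over 21974 genes and a call at an adjusted p under 0.05. In dxo1-2, 2 of the 10 genes (GUN4 and CRD1) were called higher and 2 (CHLM and CAO) lower, where 42.1% of all genes tested were called, 21.5% higher and 20.7% lower. Calls in dxo1-2 were thus about as frequent among the 10 as over all genes, and their median log2 fold change was −0.11 beside 0.01 over all genes. In xrn3-8, 8 genes were called lower and PORB higher, where 34.4% of all genes were called, 16.3% higher and 18.1% lower, and the median was −0.63 beside 0.00 over all genes. In the double mutant, 8 genes were called lower and GUN4 higher, where 46.4% of all genes were called, 24.4% higher and 22% lower, and the median was −0.54 beside 0.02. The libraries of xrn3-8 lay wholly below those of Col-0 for 8 of the 10 genes, against 24.2% of all genes, and those of the double mutant for 9 of the 10, against 26.6%. The 3 comparisons share the Col-0 libraries. In bulk RNA, fewer mesophyll cells and less RNA per cell cannot be told apart. The summed mesophyll markers lay below Col-0 in all 3 mutants. They stood at 7967 to 9987 CPM in dxo1-2, 6386 to 7917 CPM in xrn3-8 and 4764 to 6263 CPM in the double mutant, against 10116 to 10931 CPM in Col-0. In dxo1-2, 0 of the 5 markers were called. The part of these markers in the result was not tested.

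**Figure D2:**
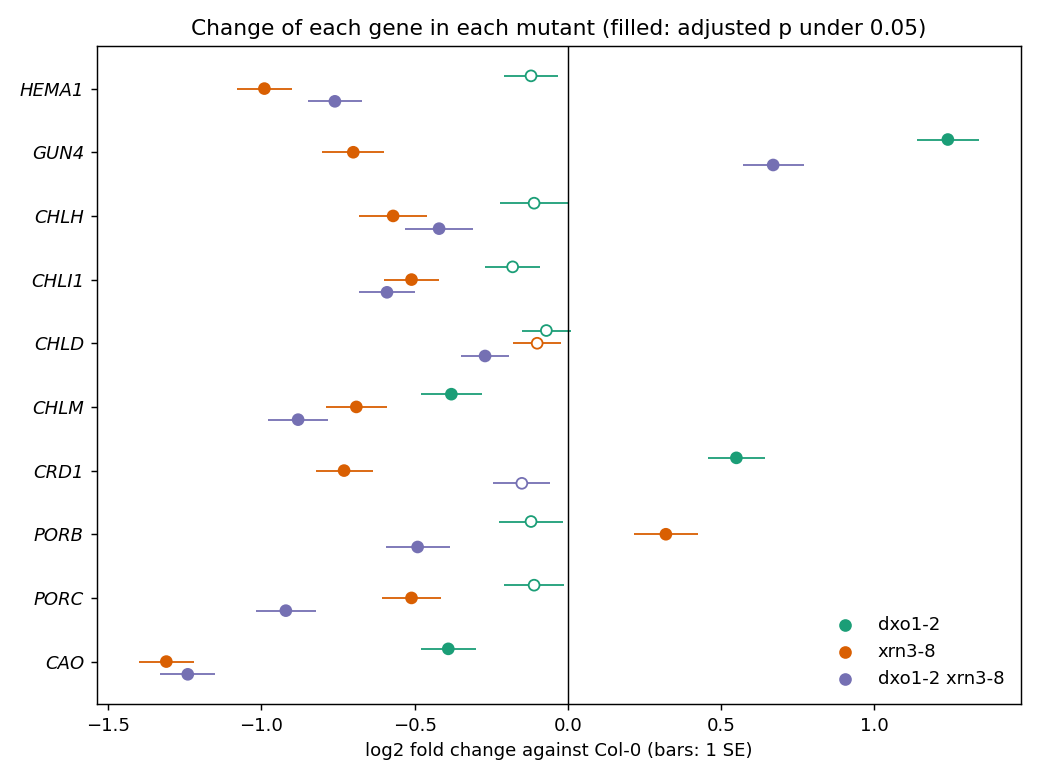
Log2 fold change against Col-0 of each gene (horizontal axis, with 1 SE) in dxo1-2, xrn3-8 and the double mutant; filled points have an edgeR adjusted p under 0.05. Most xrn3-8 and double mutant points lie left of 0, from −1.31 for CAO in xrn3-8 to 0.67 for GUN4 in the double mutant.

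HEMA1 encodes the main leaf form of glutamyl-tRNA reductase, the entry step of the pathway. It had 484, 526 and 481 CPM in dxo1-2, 291, 278 and 246 CPM in xrn3-8 and 314, 326 and 320 CPM in the double mutant, against 557, 574 and 489 CPM in Col-0. The dxo1-2 libraries overlapped those of Col-0, and all libraries of xrn3-8 and the double mutant lay below both. HEMA1 fell to 0.502 of the Col-0 level in xrn3-8 (log2 fold change −0.99, SE 0.0885, adjusted p 1.8e-06) and to 0.592 in the double mutant (log2 fold change −0.76, SE 0.0881, adjusted p 9.1e-06). In dxo1-2 the log2 fold change was −0.12 with an adjusted p of 0.288.

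Magnesium is inserted into protoporphyrin IX by Mg-chelatase, made of the porphyrin-binding subunit CHLH, the ATPase subunit CHLI and the subunit CHLD, with GUN4 as an activator that binds the porphyrin. GUN4 had 82.7, 87.5 and 72.4 CPM in dxo1-2, 21.5, 22.5 and 19.5 CPM in xrn3-8 and 50.6, 51.5 and 61.0 CPM in the double mutant, against 31.3, 34.2 and 37.3 CPM in Col-0. The 4 genotypes did not overlap, and xrn3-8 was the only one below Col-0. GUN4 rose to 2.36 times the Col-0 level in dxo1-2 (log2 fold change 1.24, SE 0.1, adjusted p 4.9e-07) and to 1.59 times in the double mutant (0.67, SE 0.0995, adjusted p 8.7e-05), and it fell to 0.618 in xrn3-8 (−0.70, SE 0.101, adjusted p 1.2e-04). GUN4 is uncertain, because 946 of its 1296 exon bases (73%) lie within exons of GCN2 (AT3G59410), a protein kinase gene on the opposite strand, and the strand setting of the counting is not given in the sources used here. GCN2 itself averaged 18.4 ± 1.40 CPM in dxo1-2, 25.1 ± 1.26 CPM in xrn3-8 and 22 ± 0.804 CPM in the double mutant, against 20.2 ± 0.119 CPM in Col-0 (SD, n = 3). GCN2 was called in xrn3-8 alone (log2 fold change 0.31, adjusted p 0.00504).

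CHLH had 1816, 1961 and 1678 CPM in dxo1-2, 1438, 1321 and 1188 CPM in xrn3-8 and 1428, 1314 and 1654 CPM in the double mutant, against 1977, 2057 and 1833 CPM in Col-0. Every library of xrn3-8 and of the double mutant was below Col-0, and dxo1-2 overlapped it. CHLH fell by 0.57 on the log2 scale in xrn3-8 (SE 0.111, adjusted p 0.00114) and by 0.42 in the double mutant (SE 0.110, adjusted p 0.00664). CHLI1, the main CHLI gene, had 439, 424 and 415 CPM in dxo1-2, 319, 374 and 324 CPM in xrn3-8 and 324, 337 and 300 CPM in the double mutant, against 488, 522 and 437 CPM in Col-0. Its libraries ordered like those of CHLH, with only dxo1-2 reaching into the Col-0 range. CHLI1 fell by 0.51 in xrn3-8 (SE 0.0903, adjusted p 6.1e-04) and by 0.59 in the double mutant (SE 0.0904, adjusted p 1.1e-04). CHLD had 95.1, 100 and 92.9 CPM in dxo1-2, 94.4, 94.3 and 92.8 CPM in xrn3-8 and 83.8, 79.2 and 86.9 CPM in the double mutant, against 101, 111 and 89.8 CPM in Col-0. Only the double mutant lay wholly below Col-0. CHLD fell by 0.27 in the double mutant (SE 0.0792, adjusted p 0.0112), a call lost without Col-0 replicate 2 (log2 fold change −0.19, adjusted p 0.0965), and its log2 fold changes of −0.07 in dxo1-2 (adjusted p 0.516) and −0.10 in xrn3-8 (adjusted p 0.351) were not called.

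Because the subunits act in 1 complex, their counts were also set against each other within each library, which does not depend on library scaling. The log2 ratio of CHLD to CHLI1 was −2.21, −2.08 and −2.16 in dxo1-2, −1.76, −1.99 and −1.80 in xrn3-8 and −1.95, −2.09 and −1.79 in the double mutant, with a mean of −2.26 ± 0.0243 in Col-0 (SD, n = 3). It was higher than in Col-0 in 3 of 3 libraries of each mutant, by 0.11, 0.41 and 0.32 in the same order (exact two-sided permutation test, p = 0.1 each, adjusted 0.18 over 9 tests). A p of 0.1 is the smallest that 3 against 3 libraries can give, so no ratio could pass the threshold. The log2 ratio of CHLH to CHLI1 differed from Col-0 by 0.07 in dxo1-2, −0.07 in xrn3-8 and 0.17 in dxo1-2 xrn3-8 (exact permutation p 0.5, 0.5 and 0.4, adjusted 0.562 each), and the libraries overlapped.

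CHLM methylates Mg-protoporphyrin IX, and CRD1 belongs to the cyclase that acts on the product. CHLM had 80.8, 80.8 and 72.8 CPM in dxo1-2, 53.2, 69.8 and 65.1 CPM in xrn3-8 and 55.0, 56.0 and 54.6 CPM in the double mutant, against 99.9, 112 and 92.1 CPM in Col-0. All 9 mutant libraries were below the 3 of Col-0. CHLM fell by 0.38 on the log2 scale in dxo1-2 (SE 0.0985, adjusted p 0.00701), by 0.69 in xrn3-8 (SE 0.0988, adjusted p 1.1e-04) and by 0.88 in the double mutant (SE 0.0991, adjusted p 7.0e-06). The dxo1-2 call was lost without Col-0 replicate 2 (log2 fold change −0.28, adjusted p 0.0609). CRD1 had 2222, 2185 and 1982 CPM in dxo1-2, 877, 924 and 834 CPM in xrn3-8 and 1360, 1218 and 1341 CPM in the double mutant, against 1371, 1570 and 1420 CPM in Col-0. The dxo1-2 libraries lay above Col-0, those of xrn3-8 below it by more than the spread of either group and those of the double mutant just below it. CRD1 rose to 1.47 times the Col-0 level in dxo1-2 (log2 fold change 0.55, SE 0.0928, adjusted p 2.9e-04) and fell to 0.604 in xrn3-8 (−0.73, SE 0.0930, adjusted p 4.1e-05). In the double mutant the log2 fold change was −0.15 (SE 0.0926, adjusted p 0.192) and was not called.

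PORB and PORC encode light-dependent protochlorophyllide oxidoreductases, which carry out the step that needs light. PORB had 688, 718 and 698 CPM in dxo1-2, 929, 953 and 958 CPM in xrn3-8 and 613, 495 and 519 CPM in the double mutant, against 753, 864 and 665 CPM in Col-0. The xrn3-8 libraries were above Col-0, the double mutant libraries below it and the dxo1-2 libraries within its range. PORB rose to 1.25 times the Col-0 level in xrn3-8 (log2 fold change 0.32, SE 0.104, adjusted p 0.0292) and fell to 0.713 in the double mutant (−0.49, SE 0.104, adjusted p 0.00159), and its −0.12 in dxo1-2 was not called (adjusted p 0.392). The rise in xrn3-8 is fragile: without Col-0 replicate 1, Col-0 replicate 3, xrn3-8 replicate 2 or xrn3-8 replicate 3 it was not called, with adjusted p from 0.061 to 0.12. PORC had 145, 147 and 139 CPM in dxo1-2, 98.5, 119 and 108 CPM in xrn3-8 and 87.9, 78.2 and 78.8 CPM in the double mutant, against 162, 168 and 133 CPM in Col-0. The libraries of xrn3-8 and the double mutant lay below those of Col-0 without overlap. PORC fell by 0.51 in xrn3-8 (SE 0.0969, adjusted p 0.00104) and by 0.92 in the double mutant (SE 0.0975, adjusted p 3.9e-06), with −0.11 in dxo1-2 (adjusted p 0.407).

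Within libraries, the log2 ratio of PORB to PORC was 2.25, 2.29 and 2.33 in dxo1-2, 3.24, 3.00 and 3.15 in xrn3-8 and 2.80, 2.66 and 2.72 in the double mutant, with a mean of 2.30 ± 0.073 in Col-0 (SD, n = 3). The ratio was higher than in Col-0 in 3 of 3 libraries of xrn3-8, by 0.83, and of the double mutant, by 0.43 (exact two-sided permutation p 0.1 each, adjusted 0.18), and differed by −0.01 in dxo1-2 (p 0.8). The proteins of PORB and PORC, translated from the RefSeq coding sequences, had 401 residues each and were 75.8% identical. PORA, which the seedling uses on first exposure to light, was 87.2% identical to PORB, and the longest run of coding bases they shared was 44. Reads that aligned to more than 1 place stayed out of the gene counts, so reads from such runs may be missing in all libraries.

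CAO encodes chlorophyllide a oxygenase, which makes chlorophyll b. It had 249, 251 and 239 CPM in dxo1-2, 119, 148 and 122 CPM in xrn3-8 and 125, 140 and 144 CPM in the double mutant, against 333, 318 and 317 CPM in Col-0. All 9 mutant libraries were below Col-0, and xrn3-8 and the double mutant overlapped each other below dxo1-2. CAO fell to 0.764 of the Col-0 level in dxo1-2 (log2 fold change −0.39, SE 0.0889, adjusted p 0.00286), to 0.403 in xrn3-8 (−1.31, SE 0.0903, adjusted p 2.2e-07) and to 0.422 in the double mutant (−1.24, SE 0.0901, adjusted p 1.2e-07). The fall in xrn3-8 and that in the double mutant were the largest of any of the 10 genes in those genotypes.

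Adding xrn3-8 to dxo1-2 was measured by comparing the double mutant with dxo1-2. The DXO1 transcript itself was also higher in the double mutant (log2 fold change 1.01), and its part in the result was not tested. Of the 10 genes 9 were called lower and 0 higher, where 31.8% of all genes were called, 16.4% higher and 15.5% lower, and the median log2 fold change was −0.54 beside 0.01 over all genes. The libraries of the double mutant lay wholly below those of dxo1-2 for all 10 genes, against 22% of all genes tested. The falls ran from 0.31 for CHLH (adjusted p 0.0433) to 0.85 for CAO (adjusted p 1.1e-05) on the log2 scale, with 0.81 for PORC, 0.70 for CRD1, 0.64 for HEMA1, 0.57 for GUN4, 0.50 for CHLM, 0.41 for CHLI1 and 0.37 for PORB. CHLD was at −0.21 and was not called (adjusted p 0.0616). The CHLH call was lost in 7 of the fits that left out 1 library, with adjusted p up to 0.153, and the PORB call without replicate 2 of the double mutant (−0.31, adjusted p 0.0528). Mesophyll markers moved in the same comparison, with 4 of 5 called lower, and their part in the result was not tested.

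Adding dxo1-2 to xrn3-8 had no common direction over the genes. The XRN3 transcript itself was also higher in the double mutant than in xrn3-8 (log2 fold change 0.90), and its part in the result was not tested. Between the double mutant and xrn3-8, 3 genes were called higher (GUN4, CRD1 and HEMA1) and 2 lower (PORB and PORC), where 43.5% of all genes were called, 22.9% higher and 20.5% lower, and the median was −0.01 beside 0.00. GUN4 rose by 1.36 on the log2 scale (SE 0.101, adjusted p 2.4e-07) and CRD1 by 0.57 (SE 0.0928, adjusted p 2.2e-04). Both had also risen in dxo1-2 against Col-0. PORB fell by 0.80 (SE 0.105, adjusted p 3.4e-05) and PORC by 0.41 (SE 0.0970, adjusted p 0.00348), and neither was called in dxo1-2 against Col-0. HEMA1 rose by 0.24 (adjusted p 0.0418), a call that was lost in 10 of the 12 fits that left out 1 library and with upper quartile scaling (0.17, adjusted p 0.122).

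Whether the effects of the alleles add up was tested by the interaction. On the log2 scale it sets the double mutant's change from Col-0 against the 2 single-mutant changes added together, so that 0 means an additive effect. The DXO1 and XRN3 transcripts were less reduced in the double mutant than in dxo1-2 and xrn3-8, so equal reductions are not compared. The part of this in the interaction was not tested. The interaction was called for 2 of the 10 genes, where 20.9% of all genes were called, 12.2% higher and 8.67% lower. The median was 0.11 beside 0.01. PORB had an interaction of −0.69 (SE 0.147, adjusted p 0.00459): its changes were −0.12 in dxo1-2, 0.32 in xrn3-8 and −0.49 in dxo1-2 xrn3-8. That call held in all 19 alternative fits, with values from −0.81 to −0.62. CAO had an interaction of 0.46 (SE 0.126, adjusted p 0.019): the double mutant stood at −1.24, beside −0.39 in dxo1-2 and −1.31 in xrn3-8. The CAO call was lost with upper quartile scaling (0.35, adjusted p 0.0569) and without Col-0 replicate 1, dxo1-2 replicate 1 or dxo1-2 replicate 3 (adjusted p 0.0546 to 0.0643). For GUN4 and CRD1, which moved in opposite directions in the single mutants, the interactions were 0.12 (SE 0.140, adjusted p 0.588) and 0.02 (SE 0.131, adjusted p 0.931). HEMA1 at 0.36 (SE 0.124) had an adjusted p of 0.0555.

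**Figure D3:**
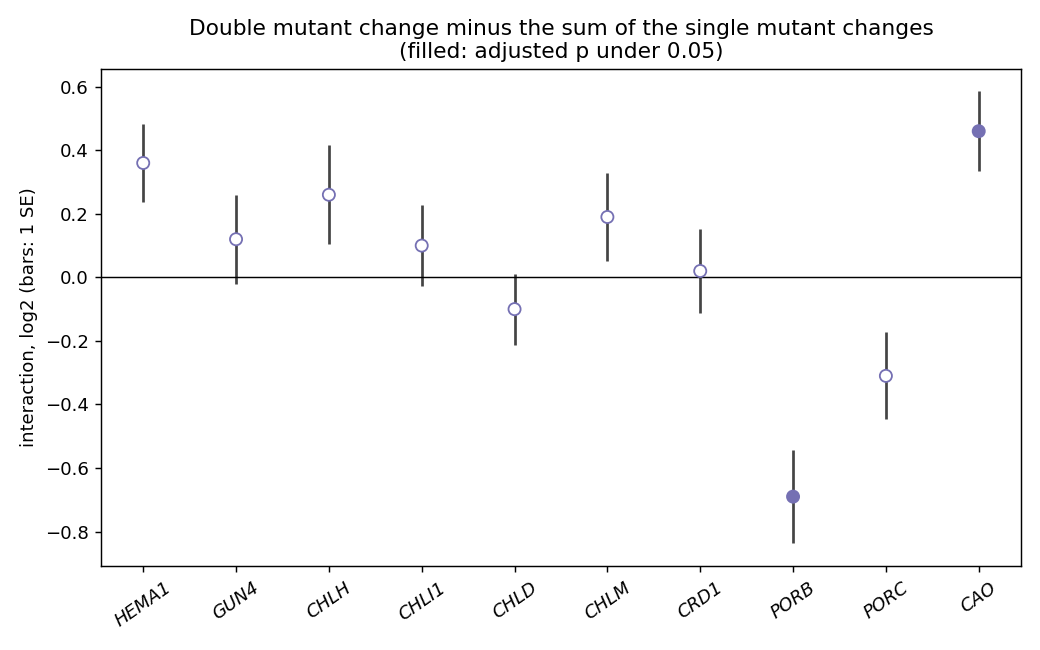
Interaction of each gene on the log2 scale, with 1 SE; a value of 0 means that the change in the double mutant equals the sum of the changes in dxo1-2 and xrn3-8, and filled points have an edgeR adjusted p under 0.05. PORB at −0.69 lies farthest from 0 and CAO at 0.46 is the highest.

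The other enzymes from glutamyl-tRNA to chlorophyll were taken as a list of 21 genes, of which 20 were tested. In dxo1-2, 1 was called higher and 3 lower, in xrn3-8 3 higher and 9 lower, and in the double mutant 0 higher and 14 lower. Their median log2 fold changes were −0.08, −0.17 and −0.44 in that order, beside 0.01, 0.00 and 0.02 over all genes, of which 42.1%, 34.4% and 46.4% were called. PORA fell in all mutants, to 41.4 ± 3.82 CPM in dxo1-2, 28.6 ± 5.48 CPM in xrn3-8 and 29.3 ± 3.87 CPM in the double mutant, against 66.0 ± 13.9 CPM in Col-0 (SD, n = 3), with an adjusted p of 0.00279 or less. HEMA2, a second glutamyl-tRNA reductase gene whose protein was 80.8% identical to that of HEMA1, also fell in all 3, by 0.89, 0.75 and 1.06 on the log2 scale. Its fall in dxo1-2 (adjusted p 4.8e-05) stands beside the −0.12 of HEMA1 there, which was not called. HEMF1, a coproporphyrinogen oxidase gene, fell by 0.29 in xrn3-8 (adjusted p 0.00642) and by 0.76 in the double mutant (adjusted p 1.4e-06). HEME1, a uroporphyrinogen decarboxylase gene, and GSA1, a gene for the enzyme that forms 5-aminolevulinic acid, fell in the double mutant (−0.49, adjusted p 3.3e-04, and −0.25, adjusted p 0.00931) and were not called in either single mutant.

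The branches to haem, bilins and sirohaem were taken as 9 genes, all tested. In dxo1-2 1 was called higher and 5 lower, in xrn3-8 1 and 4, and in the double mutant 1 and 6. Over all genes tested, 20.7%, 18.1% and 22% were called lower in these mutants, and the list's medians were −0.28, −0.20 and −0.29. FC1, a ferrochelatase gene of the haem branch, fell to 46.6 ± 6.89 CPM in dxo1-2, 63.2 ± 5.50 CPM in xrn3-8 and 51.7 ± 3.30 CPM in the double mutant, against 91.0 ± 0.856 CPM in Col-0 (SD, n = 3). HO3, a haem oxygenase gene, fell in each mutant: by 1.67 on the log2 scale in dxo1-2, 0.50 in xrn3-8 (adjusted p 0.0106) and 1.72 in dxo1-2 xrn3-8. UPM1, which leads to sirohaem, rose by 0.61 in dxo1-2 (adjusted p 1.5e-04) and 0.49 in xrn3-8 (adjusted p 0.00111), and was at 0.15 in the double mutant (adjusted p 0.197). FC1, HO3 and UPM1 each overlap a gene on the opposite strand and are uncertain for the same reason as GUN4. HO1, the main haem oxygenase gene, fell by 0.37 in xrn3-8 (adjusted p 0.00776) and was not called in the other mutants. The 4 genes for regulators that act on the pathway's proteins (FLU, GBP, BCM1 and GUN1) counted 2 higher and 1 lower in dxo1-2, and 0 higher and 3 lower in xrn3-8 and in the double mutant.

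Of 12 transcription factors known to act on chlorophyll genes, 3 were called higher and 0 lower in dxo1-2, 1 and 6 in xrn3-8, and 3 and 4 in the double mutant. Calls in dxo1-2 were thus fewer per gene than the 42.1% over all genes, beside 34.4% in xrn3-8 and 46.4% in the double mutant. HY5, a light-signalling factor of the bZIP family, averaged 5.81 ± 0.398 CPM in dxo1-2, 1.43 ± 0.334 CPM in xrn3-8 and 4.82 ± 0.618 CPM in the double mutant, against 2.39 ± 0.469 CPM in Col-0 (SD, n = 3). It rose in dxo1-2 and in the double mutant (log2 fold changes 1.28 and 1.01, adjusted p 7.5e-05 and 4.3e-04) and fell in xrn3-8 (−0.74, adjusted p 0.0084), the same directions as GUN4. HYH, the close relative of HY5, fell by 2.48 in xrn3-8 (SE 0.184, adjusted p 3.7e-07) and was not called in dxo1-2 (−0.33) or the double mutant (−0.39). CGA1, a GATA factor that promotes greening, rose in all 3 mutants, by 0.79, 1.01 and 2.16. GLK1 and GLK2, factors that drive photosynthesis genes, were looked at after the values were seen. In the double mutant GLK1 fell by 0.58 (adjusted p 0.0107) and GLK2 by 0.69 (adjusted p 0.0117), though the GLK2 libraries overlapped those of Col-0. In xrn3-8 GLK2 fell by 0.97 (adjusted p 0.002), and GLK1 at −0.05 was not called (adjusted p 0.837). Neither was called in dxo1-2 (0.14, adjusted p 0.507, and 0.10, adjusted p 0.702).

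Among 11 genes of the chlorophyll cycle and of chlorophyll breakdown, 2 were called higher and 4 lower in dxo1-2, 2 and 4 in xrn3-8, and 6 and 3 in the double mutant, where 42.1%, 34.4% and 46.4% of all genes were called. The median log2 fold changes of the list were −0.17, −0.15 and 0.37. NYC1, NOL and HCAR act in the conversion of chlorophyll b back to chlorophyll a, and they did not move together. NYC1 averaged 85.5 ± 5.02 CPM in dxo1-2, 175 ± 6.64 CPM in xrn3-8 and 225 ± 10.7 CPM in the double mutant, against 90.4 ± 4.38 CPM in Col-0 (SD, n = 3). NYC1 rose by 0.96 in xrn3-8 (adjusted p 5.9e-07) and by 1.31 in the double mutant (adjusted p 1.3e-08). HCAR averaged 10.7 ± 0.562 CPM in dxo1-2, 22.4 ± 0.556 CPM in xrn3-8 and 20.3 ± 1.56 CPM in the double mutant, against 10.3 ± 1.08 CPM in Col-0 (SD, n = 3), and rose in xrn3-8 (adjusted p 8.4e-07) and the double mutant (adjusted p 1.2e-06). Neither was called in dxo1-2. NOL, named after its values were seen, fell by 0.52 in dxo1-2 (adjusted p 0.0021) and by 0.96 in the double mutant (adjusted p 1.2e-05), with −0.28 in xrn3-8 (adjusted p 0.0735). SGR2, a relative of the STAY-GREEN magnesium dechelatase, rose by 1.57 in the double mutant (adjusted p 5.5e-05), and its relative SGRL averaged 63.3 ± 5.79 CPM in dxo1-2, 21.5 ± 1.85 CPM in xrn3-8 and 32.5 ± 2.51 CPM in the double mutant, against 49.6 ± 2.50 CPM in Col-0 (SD, n = 3). SGRL rose in dxo1-2 (adjusted p 0.00596) and fell in xrn3-8 (adjusted p 5.1e-07) and the double mutant (adjusted p 8.4e-05). SGR1, also named after its values were seen, fell by 0.66 in xrn3-8 (adjusted p 1.7e-04) and rose by 0.52 in the double mutant (adjusted p 6.4e-04). It was not called in dxo1-2 (−0.17, adjusted p 0.183). CLH1, a chlorophyllase gene, fell in all 3 mutants, by 0.97, 1.38 and 1.67. Of 4 leaf senescence markers, 0 were called higher and 3 lower in dxo1-2, 1 and 2 in xrn3-8, and 0 and 1 in the double mutant. The lower calls in dxo1-2 included SAG12, which had 0 counts there and 0 to 47 in Col-0, so its libraries overlapped. The sum of the 4 markers was 188 to 230 CPM in dxo1-2, 252 to 360 CPM in xrn3-8 and 287 to 355 CPM in the double mutant, against 343 to 351 CPM in Col-0.

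**Figure D4:**
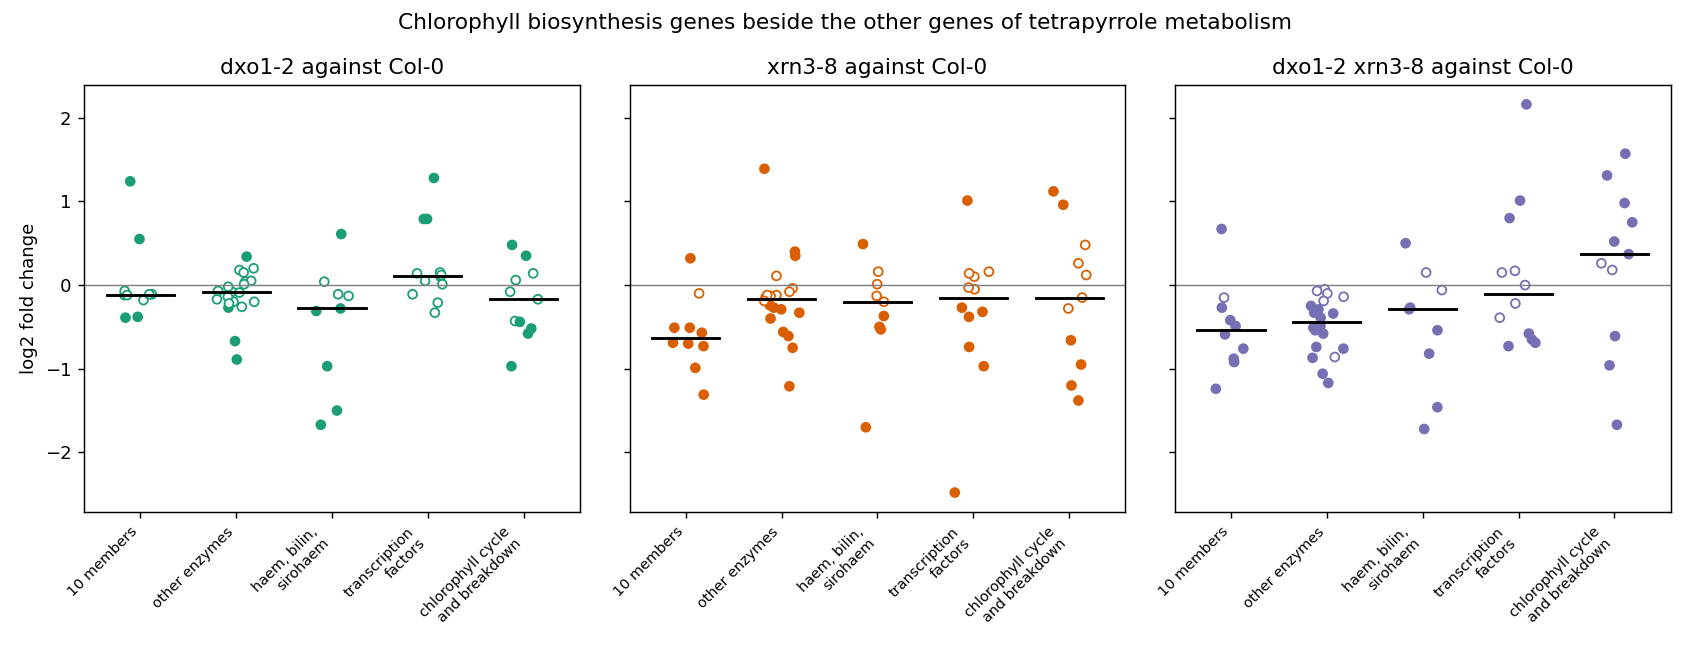
Log2 fold change against Col-0 (vertical axis) of the 10 genes and of 4 further lists of tetrapyrrole metabolism in dxo1-2, xrn3-8 and the double mutant; each point is a gene, filled where the edgeR adjusted p is under 0.05, and bars are medians. The medians of the 10 genes are −0.11, −0.63 and −0.54, and the list of the chlorophyll cycle and breakdown has a median of 0.37 in the double mutant.

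Among themselves, the genes were compared by the mean absolute difference of their profiles, each profile being log2 CPM minus the gene's own mean over 12 libraries. CHLI1 and CHLM were the closest pair at 0.105, and HEMA1 and CAO differed by 0.164. GUN4 and PORB were the farthest at 0.879. These are descriptions over libraries of the same 4 genotypes. Of 9851 nuclear genes with a mean of at least 10 CPM, the 5 nearest to the mean profile of the 10 were AT2G43560 (0.0451), AT5G39530 (0.0493), SEP1 (AT4G34190, 0.0517), GAPA (AT3G26650, 0.0551) and EMB3119 (AT3G04790, 0.0571). The nearest single genes were VTC4 to HEMA1 (0.068), SS2 to CHLH (0.0643), AT4G25890 to CRD1 (0.0977), PHS1 to PORB (0.0682) and ATH13 to CAO (0.0661). PHS1, a starch phosphorylase gene, was at −0.06, 0.49 and −0.38 relative to Col-0 (log2, in the order dxo1-2, xrn3-8, double mutant), beside −0.12, 0.32 and −0.49 for PORB.

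Apart from GUN4, overlaps with other genes were short. Taken singly, each overlapping gene covered 1.23 to 9.85% of the exon bases of CHLI1, CHLD, CHLM, CRD1, PORB, PORC or CAO. No other gene covered exon bases of HEMA1 or CHLH. CRD1 shared 147 exon bases (9.85%) with SIP2;1 and 45 (3.01%) with AT3G08795, and the part covered by both together was not computed. At the 3′ end of PORB, AT4G27450 on the opposite strand shared 71 bases (4.33%) and fell by 1.91 in dxo1-2, 0.76 in xrn3-8 and 0.93 in dxo1-2 xrn3-8, while PORB was higher in xrn3-8. Of the remaining marker lists, epidermis and guard cell markers summed to 85.4 to 90.6 CPM in dxo1-2, 73.8 to 75.4 CPM in xrn3-8 and 59.8 to 64.7 CPM in the double mutant, against 77.6 to 82.7 CPM in Col-0. Most of that sum was ATML1, with a mean of 56.6 CPM in Col-0, and the genes did not move together. In dxo1-2 FAMA fell by 0.98 (edgeR adjusted p 1.7e-05), MYB60 rose by 1.37 (adjusted p 1.8e-06), and ATML1 and TMM were not called. Phloem and xylem markers summed to 69.0 to 80.5 CPM in dxo1-2, 71.9 to 93.7 CPM in xrn3-8 and 57.2 to 71.5 CPM in the double mutant, against 73.6 to 80.7 CPM in Col-0. Root markers summed to 8.85 to 12.4 CPM in dxo1-2, 7.90 to 10.5 CPM in xrn3-8 and 9.52 to 12.1 CPM in the double mutant, against 7.04 to 8.31 CPM in Col-0, nearly all from SCR and SHR. Flower markers summed to at most 3.98 CPM in any library. Among them PI rose by 3.78 on the log2 scale in xrn3-8 (edgeR adjusted p 4.8e-05), and the other 4 were not called there. In dxo1-2, AP1 and AP3 were called lower. In the double mutant PI was called higher and AP1, AP3 and AG lower, though the AP1 libraries overlapped those of Col-0.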

How the data were processed

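The authors deposited 1 table of whole-number read counts per library, with no normalisation. Per the submitters' processing notes, HISAT2 2.0.4, SAMtools 1.1, HTSeq 0.6.0 and the build TAIR10 were used. The annotation and the strand setting are not given in the sources used here, although the kit named in the labels keeps strand. The summary lines (reads in no gene, 6.99 to 11.1%; in several genes, 0.9 to 1.21%; unaligned, 1.51 to 2.08%; aligned to several places, 9.8 to 11.2%) stayed out of library sizes and tests. A combined table of the series was not used.

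Counts were tested with edgeR 4.0.16 in R 4.3.3 (TMM scaling, glmQLFit, glmQLFTest; minimum count 10, minimum total 15) in 1 fit of all 12 libraries, with Benjamini-Hochberg adjustment over 21974 genes. The fit was tested on simulated data. The edgeR p-values set differences between genotypes against the spread between libraries, and reads carry no molecular identifiers. Libraries of 1 genotype differed beyond sampling noise (chi-square per degree of freedom 14.6 to 93.7). Alternatives were RLE and upper quartile scaling, nuclear genes alone, other filters, DESeq2 1.42.0, a replicate block, a 1.5-fold limit and leaving out each library. Same-numbered libraries did not deviate together, so the numbers were not taken as pairs. All 10 genes were named; genes of the other pathway lists were named, up to 6 a list, where they passed the interaction test or changed at least 2-fold in a mutant. Exon lengths, overlaps and sequences came from RefSeq TAIR10.1, to which all 36899 nuclear identifiers matched. The genes and lists were chosen with earlier results of these data known.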

Additional observations from a re-analysis of the deposited data

Results flagged for a closer look

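Changes in the double mutant that differed from the sum of the changes in dxo1-2 and xrn3-8 were found for 19 genes of the pathway lists, the 10 chlorophyll genes included (edgeR interaction test, log2 scale). Among the chlorophyll genes these were PORB at −0.69 (adjusted p 0.00459) and CAO at 0.46 (adjusted p 0.019), and the call for CAO is lost under the settings named with it in the account of the interaction. Among the other enzymes they were PORA at 0.71, HEMA2 at 0.57, HEMA3 at −2.05, HEMF1 at −0.30, HEME1 at −0.52 and GSA1 at −0.31. HEMA3 averaged at most 0.772 CPM in any genotype. In the haem, bilin and sirohaem branches they were HO4 at 1.73, FC1 at 0.68, UPM1 at −0.94 and HO1 at 0.41, with HO4 averaging at most 1.59 CPM. HYH had 2.43 among the transcription factors. In the chlorophyll cycle and breakdown, SGR1 had 1.35 (adjusted p 2.9e-05), SGR2 1.52, PAO 0.65, NYC1 0.44, PPH 0.44 and CLH2 1.56, and CLH2 overlaps a gene on the opposite strand. Over all genes tested, 20.9% had a called interaction.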

How the results depend on the processing

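Counts of called genes among the 10 stayed within 1.5 times under the other scalings, the other filters, DESeq2 and the fits of only the genotypes compared. The genes called were not always the same. For the interaction, upper quartile scaling lost CAO and called PORC (−0.41, adjusted p 0.0428), and DESeq2 also called HEMA1 (0.34, adjusted p 0.0229). A 1.5-fold limit left 1 of 4 calls in dxo1-2, 5 of 9 in xrn3-8, 6 of 9 in the double mutant, 4 of 9 between the double mutant and dxo1-2, 2 of 5 between the double mutant and xrn3-8 and 1 of 2 for the interaction. Over all genes that limit left 4857 calls in dxo1-2 (9252 without it), 4110 in xrn3-8 (7566), 5773 in the double mutant (10188), 3315 against dxo1-2 (6997) and 5172 against xrn3-8 (9549). Leaving out 1 library gave 1 to 3 called interactions. Values near 0 changed sign: CHLD (−0.12 to 0.03) and PORB (−0.18 to 0.01) in dxo1-2 on leaving out 1 library, each above 0 without Col-0 replicate 2, the interaction of CHLI1 (−0.01) and of CRD1 (−0.09) with upper quartile scaling and of CRD1 with nuclear genes alone (−0.01), and of CRD1 on leaving out 1 library (−0.06 to 0.08). The log2 ratio of CHLH to CHLI1 in xrn3-8 ran from −0.17 to 0.00, and that of PORB to PORC in dxo1-2 from −0.05 to 0.02, on leaving out 1 library. Upper quartile scaling moved the median interaction of the nuclear genes tested to −0.10. It moved the share of calls over all genes that were higher to 59.4% in xrn3-8 (47.4% with TMM) and to 40.9% for the interaction (58.4%). The gene nearest to CHLH changed with Euclidean distance. The cause of these changes was not tested.

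The replicate numbers do not pair the libraries: correlations of same-numbered libraries ran from −0.276 to 0.311 over 18 pairs, 6 of them over 0.1, and 4 of 12 libraries correlated best with their own number. With the replicate block 4, 9 and 9 of the 10 genes were called in dxo1-2, xrn3-8 and the double mutant, 8 against dxo1-2 (CHLH at −0.31, adjusted p 0.063), 5 against xrn3-8 and 3 for the interaction (HEMA1 at 0.36, adjusted p 0.0487). The number of libraries, 3 a genotype, limits the precision, and the part of sequencing depth was not tested.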

Other observations

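The genes that lie next past the 3′ ends of the 10 genes were looked at after the values of AT4G25090 were seen. Of these 10 genes 8 were tested, 4 were called in no mutant (AT3G59390, AT4G18465, AT1G08530 and SIP2;1) and 4 in at least 1. Each comparison with Col-0 alone called 42.1% (dxo1-2), 34.4% (xrn3-8) or 46.4% (double mutant) of all genes tested. The share of all genes called in at least 1 mutant is not given. Whether 4 of 8 is an excess can therefore not be read from this count. Genes past the 3′ ends on the opposite strand are uncertain, AT4G25090, AT4G27450 and AT1G44414 among them. The reason is that the strand setting of the counting is not given. AT4G25090 converges on CHLM with an overlap of 37 exon bases. Its counts were 9 to 40 in the dxo1-2 libraries, 178 to 347 in those of xrn3-8 and 8 to 16 in those of the double mutant, against 0 to 2 in Col-0 (edgeR adjusted p 8.5e-04, 1.5e-06 and 0.0111). AT5G13620, 920 bases past CHLH on the same strand, had 0 to 3 counts in dxo1-2, 1 to 46 in the xrn3-8 libraries and 0 to 4 in those of the double mutant, against 0 to 6 in Col-0, and was too low to be tested. Past HEMA1, AT1G58280 fell by 1.08 on the log2 scale in the double mutant (adjusted p 4.7e-04) and was not called in dxo1-2 or xrn3-8. Past CAO, AT1G44414 had 2 to 4 counts in dxo1-2, against 8 to 18 in Col-0 (adjusted p 0.0315). The gene past PORB, AT4G27450, fell in all 3 mutants as given above. CHLM, CHLH and HEMA1 themselves fell in xrn3-8, where 8 of the 10 chlorophyll genes were called lower. GUN4, CHLI1, CRD1 and CAO fell there too, and the genes past them were not called in xrn3-8 (log2 fold changes 0.11, −0.05, −0.26 and −1.51). A link between the chlorophyll genes and the genes past them was not tested.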
